A study of Mus musculus with 5 samples.

Results

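Topical forskolin was compared with topical cAMP in mouse epidermis, using 4 of the 5 RNA-seq libraries of a study of the CREB pathway in hair follicle stem cell activation. All 4 came from the dorsal epidermis of wildtype C57BL/6 male mice at postnatal day 49, and the skin had been shaved before treatment. Forskolin 1 and 2 came from skin given 10 µM forskolin, and cAMP 1 and 2 from skin given 1.325 mM cAMP. Both compounds were carried in DMSO and PLO lotion and applied 3 times over 5 days. The doses differ in size and in kind, each set per the labels at 5 times an IC50, so the contrast is between these particular treatments and not between the agents at a matched dose. The untreated library is in no comparison reported here, and it entered only an alternative fit on all 5 libraries, as a group of its own. Whether libraries 1 and 2 of a treatment came from separate mice is not in the labels, so the distance between them may be technical. A p-value here rests almost wholly on that distance as pooled over many genes. The gene's own libraries weigh little in it.

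Forskolin is a plant diterpene that activates adenylyl cyclase, the enzyme that makes cAMP inside the cell. Cyclic AMP activates protein kinase A, which phosphorylates the transcription factor CREB at genes that carry cAMP response elements. The NR4A nuclear receptors, the period genes and Crem are among the best known CREB targets, and most of them are short-lived early genes. The epidermis is a layered sheet of keratinocytes, and the hair follicles and sebaceous glands that grow down from it come with it in a total epidermal preparation. Sebaceous glands make wax esters, triglycerides and cholesterol esters.

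A gene was called when its adjusted p in limma was under 0.05, and differences are forskolin minus cAMP on the log2(CPM + 1) scale, where CPM is a value scaled to the library's total. Of 13629 genes tested, 46 were called (0.338%). Of these, 22 were higher with forskolin (0.161%) and 24 were higher with cAMP (0.176%). Genes whose pair of forskolin libraries did not overlap the pair of cAMP libraries were far more frequent, 4586 (33.6%), with 2263 higher with forskolin (16.6%) and 2323 higher with cAMP (17%). With 2 libraries a side, about 1 gene in 3 would not overlap if the treatments did not differ, and the share here is near that. Non-overlap is thus common over all genes and by itself says little of a single gene. Each list's count of such members is to be read against these shares. The genes called higher with cAMP included Cyp2g1, Elovl3, Lpl, Acoxl and Hsd3b6, and those called higher with forskolin included Nr4a3, Nr4a2, Rptn and Serpinb2. Of these 9 genes, Cyp2g1, Nr4a3 and Rptn were still called with a pseudocount of 0.1, and none was called when genes with low values were kept in the test. The largest differences of all were in Gm10801 and Gm10800, members of a group of repeat-like predicted genes.

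**Figure D1:**
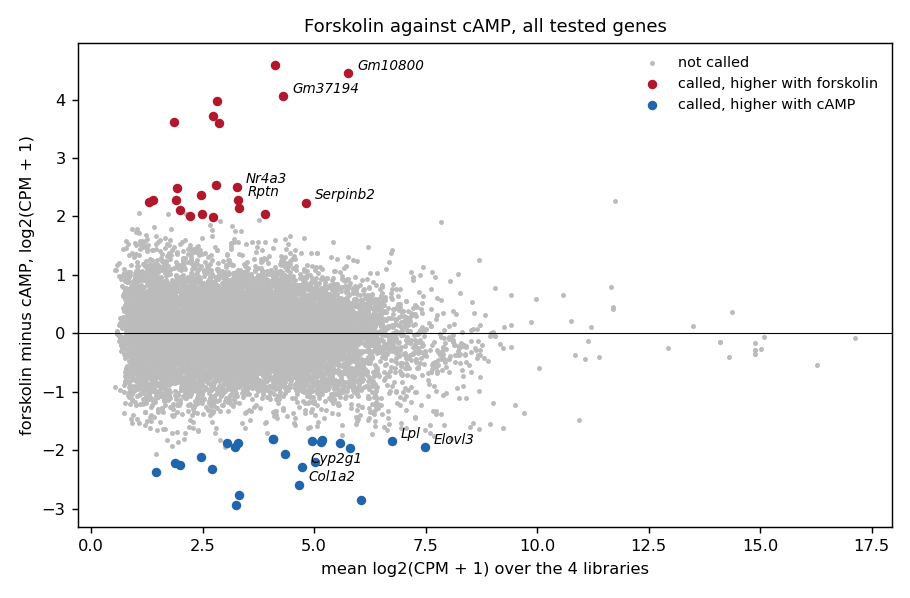
Each point is a tested gene, with its mean level over the 4 libraries on the horizontal axis (log2(CPM + 1)) and the difference, forskolin minus cAMP, on the vertical axis (log2). The 22 genes called higher with forskolin are red and the 24 called higher with cAMP blue, and Gm10800 stands near the top at 4.45.

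The libraries differed in make-up within each treatment about as much as between treatments. Mitochondrial transcripts held 50.7% and 45.6% of the forskolin libraries and 43.2% and 58.1% of the cAMP libraries. Forskolin 2 held 6.89% ribosomal RNA, where the others held at most 0.18%. Across genes on the log2 scale, forskolin 2 correlated with cAMP 1 at 0.9314 and with forskolin 1 at 0.9306, so the pairs of libraries did not separate by treatment. If the offset that stands in place of 0 in the table is 0.0001 read, the libraries held between 34200000 reads (cAMP 2) and 51700000 reads (cAMP 1). Gene by gene, the effect of leaving out a library is therefore given below. The median difference of all tested genes, 0.031, was itself 0.267 without cAMP 1 and -0.219 without cAMP 2. It was -0.012 without forskolin 1 and 0.077 without forskolin 2. List medians with a library left out are to be read against these values.

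Genes of lipid and steroid metabolism were among those called higher with cAMP, beside genes of other kinds. Cyp2g1, a cytochrome P450 (chromosome 7, 26808927 to 26821197), stood at 8.26 and 14.4 CPM in the forskolin libraries and at 48.2 and 68.3 CPM in the cAMP libraries. The difference was -2.29 ± 0.47 (SE, n = 2 libraries a side; limma adjusted p = 0.00208). Both cAMP values lay well above both forskolin values. Elovl3, an elongase that makes very long chain fatty acids of the sebaceous gland (chromosome 19, 46131897 to 46135307), stood at 69.4 and 117 CPM with forskolin and at 432 and 285 CPM with cAMP. Its difference was -1.95 ± 0.49 (adjusted p = 0.0392). Lpl, the lipoprotein lipase that releases fatty acids from circulating triglyceride (chromosome 8, 68880491 to 68907448), stood at 42.8 and 71.6 CPM against 196 and 207 CPM, a difference of -1.84 ± 0.48 (adjusted p = 0.0474). The groups did not overlap for Elovl3 or Lpl either, and the forskolin library nearer to cAMP was forskolin 2 in each case.

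Acoxl, a member of the acyl-CoA oxidase family of peroxisomal fatty acid breakdown, stood at 13.6 and 42.6 CPM with forskolin and at 102 and 81.8 CPM with cAMP (-1.87 ± 0.47, adjusted p = 0.0418). Hsd3b6, a hydroxysteroid dehydrogenase of steroid hormone synthesis, stood at 14.9 and 16 CPM against 73.2 and 45.5 CPM (-1.84 ± 0.47, adjusted p = 0.0423). The forskolin libraries were close to each other for Hsd3b6 and far apart for Acoxl. Outside lipid metabolism, the channel gene Panx3 stood at 16 and 20.6 CPM against 57.1 and 78.4 CPM (-1.83 ± 0.47, adjusted p = 0.0429). Tmem45b, a membrane protein gene, stood at 18.2 and 40.4 CPM against 117 and 101 CPM (-1.96 ± 0.47, adjusted p = 0.0226). Clstn3, which encodes a calsyntenin, a membrane adhesion protein, stood at 11.4 and 27.6 CPM against 88.2 and 50.6 CPM (-1.85 ± 0.47, adjusted p = 0.0426). In Clstn3, 58.1% of the gene's summed CPM was in a processed transcript at the 3′ end of the locus. A coding transcript that spans most of the locus held 41.1%, and the longest coding transcript 0.79%. The sources used here do not give how reads shared by these transcripts were divided. For all 3 of these genes every cAMP value was above every forskolin value.

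The calls of Cyp2g1, Elovl3, Lpl, Acoxl, Hsd3b6, Panx3, Tmem45b and Clstn3 rest on all 4 libraries together. Without forskolin 1 none of these 8 genes was called (adjusted p = 1 for each), and without forskolin 2 none was called either (adjusted p from 0.12 for Cyp2g1 to 0.843 for Hsd3b6). Acoxl was also not called under quantile normalization (0.0665) or scaling to nuclear genes (0.0585). Elovl3 and Lpl were not called with a minimum of 10 CPM or with limma's robust setting, and Lpl was not with a pseudocount of 5. Without cAMP 1, Cyp2g1 (0.0109) and Panx3 (0.0232) were still called. Without cAMP 2, Elovl3 (0.0427) and Hsd3b6 (0.0302) were. Summed per symbol rather than per Ensembl gene, Lpl was at an adjusted p of 0.0502. In each of these fits the genes kept their sign.

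**Figure D2:**
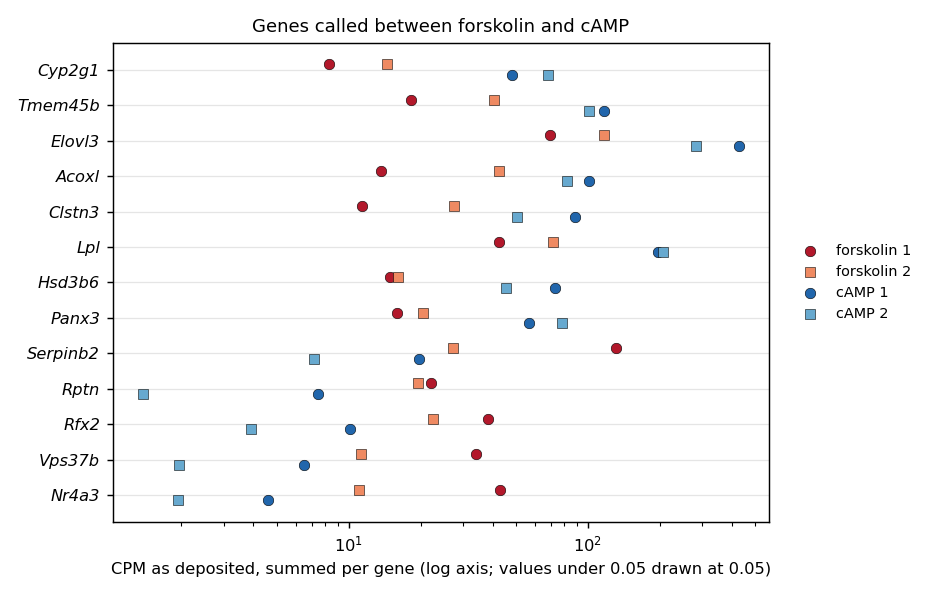
Each row is a called gene and each point a library, with CPM on a log axis (values under 0.05 drawn at 0.05). The forskolin libraries are red and orange and the cAMP libraries dark and light blue; from Cyp2g1 to Panx3 both blue points lie to the right of both red ones, and from Serpinb2 to Nr4a3 to the left.

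The sebaceous gland list, genes of sebocyte lipid synthesis and storage, was the list that lay farthest towards cAMP. Of 33 tested members, 3 were called higher with cAMP (Cyp2g1, Elovl3 and Lpl) and none higher with forskolin. The libraries did not overlap for 26 members, 24 of them higher with cAMP, a direction that 17% of all tested genes showed without overlap. The median difference was -1.185, where that of all tested genes was 0.031. The summed level of the list was 3951 and 5633 CPM in the forskolin libraries and 11568 and 10865 CPM in the cAMP libraries. With each library left out in turn the median lay between -1.324 and -0.932. In bulk tissue, fewer sebocytes and less RNA per sebocyte cannot be told apart.

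Among members that were not called, Soat1, which esterifies cholesterol, stood at 82.2 and 149 CPM with forskolin and 329 and 433 CPM with cAMP (-1.76 ± 0.49, adjusted p = 0.0923). Mgst1, a microsomal glutathione transferase, stood at 103 and 108 CPM against 335 and 358 CPM (adjusted p = 0.116). Both were called when libraries were scaled by the median of their gene ratios, called median-of-ratios scaling below (0.0457 and 0.0285), which called 6 members of the list. Scd1, the stearoyl-CoA desaturase that makes monounsaturated fatty acids, stood at 947 and 1451 CPM against 2901 and 3720 CPM (-1.49, adjusted p = 0.46). Pparg, the nuclear receptor that drives sebocyte and fat cell differentiation, stood at 20.6 and 19.7 CPM against 55.0 and 40.9 CPM (-1.20, adjusted p = 0.446). The groups did not overlap for any of these 4 genes. Since Lpl also marks fat cells, the adipocyte list is given beside it. Of its 10 tested members 1 (Lpl) was called, 9 were below 0, and the median was -0.51. Its summed level was 171 and 280 CPM against 477 and 374 CPM. Lpl itself is part of that sum, at 42.8 and 71.6 CPM against 196 and 207 CPM, so the sum is no separate measure. The members Adipoq, Fabp4 and Cfd stood at no more than 0.907, 4.48 and 4.86 CPM in any library. Fabp4 and Lpl are on the sebaceous gland list too. Car3, another gene of that list, stood at 3.38 and 6.21 CPM with forskolin and at 6.33 and 21 CPM with cAMP (-1.18, adjusted p = 0.542). The part of fat cells in the result was not tested.

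Cholesterol synthesis lay in the same direction, with no call. None of 24 tested members was called, 16 had an unadjusted p under 0.05 with cAMP higher, and 1 (Msmo1) was called under median-of-ratios scaling. Libraries did not overlap for 20 members, 19 of them higher with cAMP, and the median difference was -1.004. Msmo1, a methylsterol oxidase of the late pathway, stood at 155 and 133 CPM with forskolin and 468 and 540 CPM with cAMP (-1.80 ± 0.50, adjusted p = 0.0828; 0.0285 under median-of-ratios scaling). Idi1, the isopentenyl diphosphate isomerase, stood at 136 and 126 CPM against 290 and 405 CPM (-1.38, adjusted p = 0.353). Mvd, the mevalonate diphosphate decarboxylase, stood at 27.5 and 49.5 CPM against 116 and 89.6 CPM (-1.44, adjusted p = 0.248). Insig1, the sterol-sensing brake on the pathway, stood at 29.5 and 30.3 CPM against 64.3 and 78.0 CPM (-1.22, adjusted p = 0.431). In each of these 4 genes the cAMP libraries were above both forskolin libraries.

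Fatty acid breakdown and mitochondrial respiration were also lower with forskolin by their medians. Of 30 tested genes of beta-oxidation and peroxisomes, 1 (Acoxl) was called, 26 had libraries that did not overlap, all with cAMP higher, and the median was -0.896. Decr1, a dienoyl-CoA reductase of mitochondrial beta-oxidation, stood at 23.5 and 27.1 CPM with forskolin and 75.7 and 57.7 CPM with cAMP (-1.35, adjusted p = 0.305). Slc25a20, the mitochondrial acylcarnitine carrier, stood at 11.9 and 22.6 CPM against 48.5 and 39.6 CPM (-1.36, adjusted p = 0.305). The 41 nuclear genes of oxidative phosphorylation held no call, but every difference was below 0 and the median was -0.748. Uqcrb, a subunit of complex III, stood at 18.7 and 9.6 CPM against 45.4 and 29.1 CPM (-1.37, adjusted p = 0.301). This list's size depended on cAMP 1. Its summed level was 1990 and 1935 CPM with forskolin and 4266 and 2433 CPM with cAMP. Its median was -0.316 without cAMP 1 and -1.16 without cAMP 2, where that of all tested genes was 0.267 and -0.219. The 15 mitochondrially encoded genes had a median of -0.152 and no call.

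**Figure D3:**
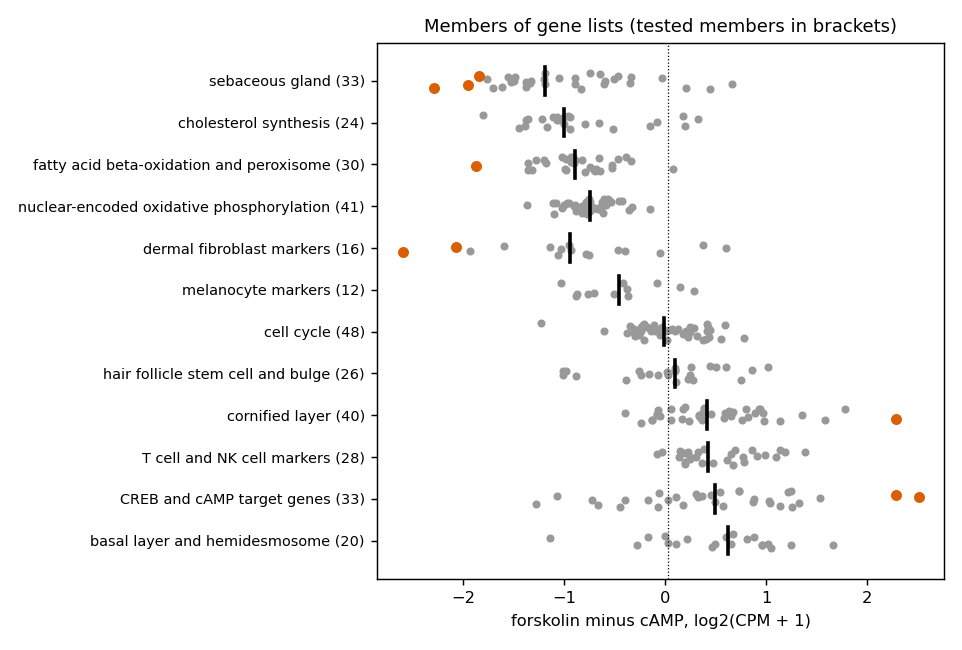
Each row is a gene list with its number of tested members, and each point a member's difference, forskolin minus cAMP (log2); called members are orange, the black bar is the list's median and the dotted line the median of all tested genes (0.031). The sebaceous gland (-1.185) and cholesterol synthesis (-1.004) medians lie farthest left, and the basal layer median (0.626) lies to the right.

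Of the early cAMP-responsive genes, those called were higher with forskolin. Nr4a3 (chromosome 4, 48045153 to 48086447), which encodes the orphan nuclear receptor NOR-1, stood at 43.0 and 11.1 CPM with forskolin and at 4.61 and 1.93 CPM with cAMP. The difference was 2.51 ± 0.49 (SE, n = 2 libraries a side; limma adjusted p = 0.000865). Its relative Nr4a2 (NURR1; chromosome 2, 57106830 to 57124003) stood at 16.2 and 2.93 CPM against 0.91 and 0.497 CPM (2.28 ± 0.53, adjusted p = 0.0168). In both genes forskolin 1 was several times forskolin 2, and both forskolin values were above both cAMP values. The third member, Nr4a1 (NUR77), overlapped between the treatments at 51.7 and 14.2 CPM against 23.6 and 8.75 CPM (0.87, adjusted p = 0.787). A test of the difference between family members was not run.

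Within Nr4a3, the coding transcript that starts at 48045153 stood at 10.8 and 7.77 CPM with forskolin and at 0.0122 and 0.00512 CPM with cAMP. The coding transcript that starts further 3′, at 48049114, stood at 32.1 and 1.99 CPM against 4.59 and 1.93 CPM. As listed, the first of these transcripts was well above cAMP in both forskolin libraries, and the second only in forskolin 1. Both transcripts overlap over most of the locus, and the sources used here do not give how reads that match both were divided. Their values are thus not separate measurements, and a difference between the transcripts was not tested. Without forskolin 1 or without cAMP 2 neither Nr4a3 nor Nr4a2 was called, and Nr4a2 was not called without cAMP 1 either. Without forskolin 1 their differences were 1.58 and 1.22, and without cAMP 2 they were 2.04 and 2.11. Under median-of-ratios scaling Nr4a2 was at an adjusted p of 0.0787.

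The other early genes are given in turn. Fosl1, an AP-1 subunit (FRA-1), was called at 12.7 and 4 CPM with forskolin against 2.65 CPM in cAMP 1 and the table's offset in cAMP 2 (2.11 ± 0.53, adjusted p = 0.0392; 0.0956 under median-of-ratios scaling). Fosb overlapped at 60.1 and 21.2 CPM against 24.2 and 7.58 CPM (1.33, adjusted p = 0.362). Fos stood at 15.3 and 8.77 CPM against 35.9 and 17.9 CPM (-1.07, adjusted p = 0.619). Egr1, a zinc finger early response factor, stood at 64.4 and 35.0 CPM against 147 and 92.8 CPM (-1.28, adjusted p = 0.389). Both cAMP libraries were thus above both forskolin libraries for Fos and Egr1, opposite in sign to Fosl1, with no call. The clock gene Per2 stood at 39.1 and 32.0 CPM with forskolin and 14.7 and 9.13 CPM with cAMP (1.53 ± 0.47, adjusted p = 0.17; 0.0423 under median-of-ratios scaling). Its paralog Per1 stood at 109 and 108 CPM against 70.1 and 39.3 CPM (1.03, adjusted p = 0.661).

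**Figure D4:**
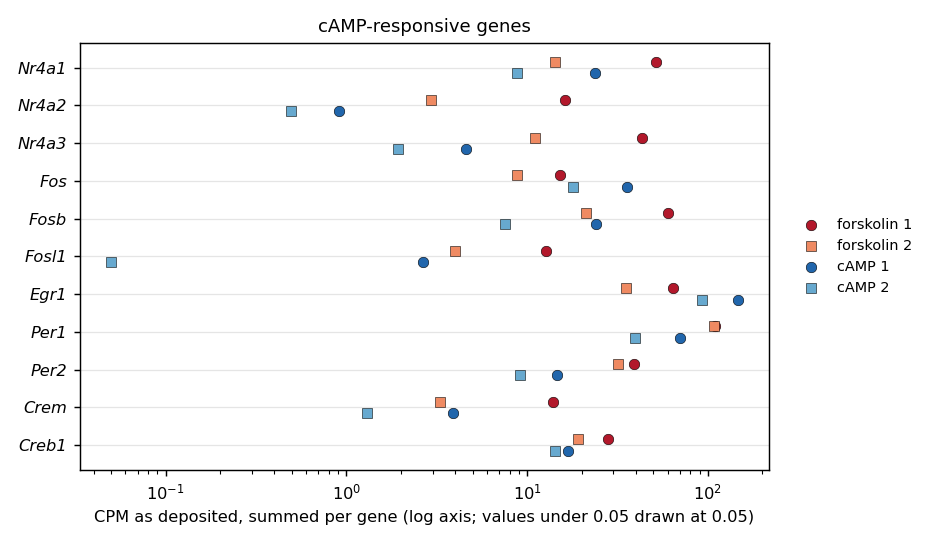
Each row is a cAMP-responsive or early gene and each point a library, with CPM on a log axis (values under 0.05 drawn at 0.05). The red and orange forskolin points lie to the right of the blue cAMP points for Nr4a2, Nr4a3, Fosl1, Per1 and Per2, and to the left for Fos and Egr1.

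Over the whole list of CREB and cAMP target genes, 33 were tested, 2 were called higher with forskolin (Nr4a3 and Nr4a2) and none with cAMP. Libraries did not overlap for 8 members higher with forskolin and 4 higher with cAMP, and the median was 0.498. The median was 0.223 without forskolin 1 and 0.888 without forskolin 2. Of 33 tested genes of cAMP production, breakdown and response, none was called, and the median was 0.26. Libraries did not overlap for 12 members higher with forskolin and 7 higher with cAMP. Differences ran from -1.122 to 1.26, with 22 members above 0 and 11 below. The genes named next were all above 0. In that list the stimulatory G protein gene Gnas stood at 52.5 and 155 CPM with forskolin and 44.8 and 30.7 CPM with cAMP (1.26, adjusted p = 0.411). The CREB coactivator gene Crebbp stood at 35.9 and 42.5 CPM against 17.1 and 18.2 CPM (1.10, adjusted p = 0.561), and the phosphodiesterase gene Pde4d at 3.74 and 3.57 CPM against 0.6 and 1.52 CPM (1.21, adjusted p = 0.62). Crem overlapped, with forskolin 1 at 13.8 CPM and the others between 1.31 and 3.88 CPM. Creb1 itself stood at 27.9 and 19.0 CPM against 16.8 and 14.3 CPM (0.54, adjusted p = 0.982).

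Promoter windows are shown for 4 of the genes higher with forskolin, because of the motifs they hold. Of these genes, 2 hold the core of the cAMP response element and 2 a match to TGANTCA, a loose form of the AP-1 motif. Each window runs from 250 bases before to 50 after a RefSeq start, on GRCm38.p6, 5′ to 3′ on the gene's strand. Capitals mark the CRE core TGACG (or its reverse complement CGTCA) in Nr4a3 and Nr4a2, and TGANTCA, where N is any base, in Serpinb2 and Rptn. The middle base was A in Serpinb2 and T in Rptn.
Nr4a3, chr4:48045055-48045354, plus strand: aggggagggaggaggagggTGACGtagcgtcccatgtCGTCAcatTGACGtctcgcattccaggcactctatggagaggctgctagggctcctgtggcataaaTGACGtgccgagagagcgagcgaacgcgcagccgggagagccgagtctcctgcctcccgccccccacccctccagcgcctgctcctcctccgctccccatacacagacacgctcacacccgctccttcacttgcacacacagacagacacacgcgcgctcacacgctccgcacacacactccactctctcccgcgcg
Nr4a2, chr2:57123954-57124253, minus strand: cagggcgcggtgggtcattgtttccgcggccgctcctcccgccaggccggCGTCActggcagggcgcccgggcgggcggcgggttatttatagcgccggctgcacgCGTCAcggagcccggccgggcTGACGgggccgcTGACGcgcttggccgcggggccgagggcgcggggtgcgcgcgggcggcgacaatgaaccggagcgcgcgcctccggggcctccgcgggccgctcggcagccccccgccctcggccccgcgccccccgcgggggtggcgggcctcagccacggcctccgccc
Serpinb2, chr1:107511173-107511472, plus strand: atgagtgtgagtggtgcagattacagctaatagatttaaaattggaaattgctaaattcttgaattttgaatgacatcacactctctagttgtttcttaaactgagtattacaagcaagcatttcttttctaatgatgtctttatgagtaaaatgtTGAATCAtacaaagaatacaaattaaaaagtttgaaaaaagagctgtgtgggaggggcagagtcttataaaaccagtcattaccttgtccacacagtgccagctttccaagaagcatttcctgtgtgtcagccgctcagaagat
Rptn, chr3:93393449-93393748, plus strand: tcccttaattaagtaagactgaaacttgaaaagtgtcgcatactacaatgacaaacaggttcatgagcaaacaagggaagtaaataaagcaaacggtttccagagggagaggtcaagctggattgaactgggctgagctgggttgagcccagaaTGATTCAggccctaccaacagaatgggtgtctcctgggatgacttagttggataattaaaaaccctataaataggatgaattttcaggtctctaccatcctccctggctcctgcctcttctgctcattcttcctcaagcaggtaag
The Nr4a3 and Nr4a2 windows each held 4 cores, and so did that of Nr4a1, which was not called. The core was present in 20.8% of 32851 RefSeq promoter windows and in 35.1% of the tested genes that had one. Of the 7 genes called higher with forskolin that had a window, 4 held the core, 3 held TGANTCA and none held the full element TGACGTCA. TGANTCA was present in 6.48% of tested genes with a window and the full element in 3.53%. Of 8 genes called higher with cAMP with a window, 1 (Clstn3) held the full element, 2 held the core and none held TGANTCA. In the lists that lay towards cAMP, TGANTCA was in 14.3% of sebaceous gland genes and 11.8% of cholesterol synthesis genes with a window. Msmo1, not called, held it 127 bases before its start. TGANTCA was in 0% of the CREB and cAMP target genes with a window. The core lies within the full element. In Clstn3 the element lay in the window near the start of the longest coding transcript, which held 0.79% of the gene's summed CPM. Its other window, at the start of a coding transcript with 41.1%, held none of these motifs. Both strands were searched, the motifs were chosen after the values were seen, and a match is a description and not a binding site. The windows of Acoxl and Hsd3b6 held none of these motifs. Elovl3, Lpl, Cyp2g1, Fosl1 and Per2 were not looked at in this way.

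A differentiation gene and a protease inhibitor gene of keratinocytes were called higher with forskolin. Rptn (chromosome 3, 93393699 to 93399442), which encodes repetin, a cornified envelope precursor, stood at 22.2 and 19.5 CPM with forskolin and at 7.43 and 1.38 CPM with cAMP (2.28 ± 0.49, adjusted p = 0.00436). Serpinb2, a plasminogen activator inhibitor of keratinocytes (chromosome 1, 107511423 to 107535478), stood at 131 and 27.2 CPM against 19.7 and 7.17 CPM (2.23 ± 0.48, adjusted p = 0.00525). The forskolin libraries were close for Rptn, while for Serpinb2 forskolin 2 was nearer to cAMP 1 than to forskolin 1. Serpinb10, whose locus overlaps Serpinb2 on the same strand, was called in 1 of its 2 Ensembl entries, and with both entries summed it was not (adjusted p = 0.305). Reads of the overlapping genes may be split between them. Serpinb2 was at 0.0482 under median-of-ratios scaling, 0.0606 under quantile normalization and 0.0502 under scaling to nuclear genes.

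Transcription factor and trafficking genes made up most of the other named calls. Rfx2, a factor known for cilium genes, stood at 38.2 and 22.7 CPM with forskolin and 10.1 and 3.92 CPM with cAMP (2.04 ± 0.48, adjusted p = 0.0163). Vps37b, a subunit of the ESCRT sorting machinery, stood at 34 and 11.3 CPM against 6.51 and 1.95 CPM (2.14 ± 0.49, adjusted p = 0.0132). B3galt5, a galactosyltransferase, stood at 14.6 and 4.6 CPM against 1.84 and 0.909 CPM (2.0 ± 0.51, adjusted p = 0.0448). Ikzf3, a lymphoid zinc finger factor, stood at 4.35 and 22.8 CPM against 2.34 and 1.26 CPM (2.04 ± 0.51, adjusted p = 0.0392). Forskolin 1 was the higher forskolin library in the first 3 of these genes and forskolin 2 in Ikzf3. Under median-of-ratios scaling Ikzf3 (0.117) and B3galt5 (0.0738) were not called, and the same held under quantile normalization (0.132 and 0.0903) and scaling to nuclear genes (0.112 and 0.0744). Without forskolin 1 or without cAMP 2, none of Rptn, Serpinb2, Rfx2, Vps37b and B3galt5 was called. Rptn, Rfx2 and B3galt5 were not called without forskolin 2 either, nor was B3galt5 without cAMP 1. With a library left out in turn, the difference was 1.37 to 3.20 for Rptn, 1.12 to 3.34 for Serpinb2 and 1.46 to 2.63 for Rfx2. It was 1.39 to 2.89 for Vps37b and 1.27 to 2.74 for B3galt5. Ikzf3 was not called without forskolin 2, cAMP 1 or cAMP 2, and its difference without forskolin 2 was 0.96. With a pseudocount of 0.1, Serpinb2, Rfx2, Vps37b, B3galt5 and Ikzf3 were not called.

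Cornified layer genes lay towards forskolin, with 1 call. Of 40 tested entries, Rptn was called, 15 had libraries that did not overlap, all with forskolin higher, and the median was 0.418. This median depended on the cAMP library used: it was 0.975 without cAMP 1 and 0.037 without cAMP 2. The median of all tested genes moved in the same direction, to 0.267 and -0.219. The summed level was 3895 and 3344 CPM with forskolin and 3988 and 1731 CPM with cAMP. Tgm3, a transglutaminase that crosslinks the envelope, stood at 13.2 and 17.0 CPM with forskolin and at 9.91 and 2.6 CPM with cAMP (1.35, adjusted p = 0.353). Krt10, the suprabasal keratin, stood at 1302 and 1163 CPM against 1173 and 575 CPM, and Lor, the loricrin of the envelope, at 10.4 and 9.38 CPM against 13.5 and 2.6 CPM. In each of these genes the low library was cAMP 2, with cAMP 1 near or above the forskolin libraries for Krt10 and Lor.

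Basal layer and hemidesmosome genes, which anchor keratinocytes to the basement membrane, had the largest median towards forskolin among the keratinocyte lists, 0.626, with no call among 20 tested. Libraries did not overlap for 10 members, all with forskolin higher. Itga3, an integrin alpha chain, stood at 48.3 and 30.3 CPM with forskolin and 17.5 and 7.37 CPM with cAMP (1.66 ± 0.47, adjusted p = 0.11; 0.0423 under median-of-ratios scaling). Itgb4, the hemidesmosome integrin beta chain, stood at 103 and 86.7 CPM against 58.9 and 26.2 CPM (1.24, adjusted p = 0.416). Col17a1, a transmembrane collagen of hemidesmosomes and of bulge stem cells, stood at 496 and 362 CPM against 277 and 158 CPM (1.01, adjusted p = 0.716). The keratins of the same layer did not follow: Krt14 overlapped at 1999 and 1751 CPM against 2456 and 1057 CPM, and Krt15 at 800 and 511 CPM against 953 and 369 CPM. The median was 0.312 without cAMP 2, where that of all tested genes was -0.219. The summed level of the list was lowest in cAMP 2, at 3004 CPM against 5485 to 6842 CPM in the others.

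Hair follicle stem cell genes gave no call. Of 26 tested members, libraries did not overlap for 7 higher with forskolin and 2 higher with cAMP, and the median was 0.099. Lgr5, an R-spondin receptor gene of hair follicle stem cells, stood at 0.515 and 2.22 CPM with forskolin and 3.48 and 3.42 CPM with cAMP (-1.01 ± 0.54, adjusted p = 0.759). Cd34, a bulge surface marker, stood at 4.49 and 6.47 CPM against 16.3 and 7.02 CPM (-0.88, adjusted p = 0.787). In both genes the cAMP libraries were above the forskolin libraries, at low levels, and these were the 2 members that did so. Over the list 17 members were above 0 and 9 below. Col17a1, given above, is also a member and was higher with forskolin without overlap. Of the Wnt genes, 31 were tested with a median of 0.271, and the target Axin2 overlapped at 16.7 and 22.6 CPM against 17.8 and 10.7 CPM. Of the hedgehog genes, 13 were tested with a median of 0.031, and the target Gli1 was low in forskolin 1 alone, at 0.0627 CPM, where the others held 3.0 to 3.45 CPM. The 48 cell cycle genes had a median of -0.01, 24 on each side of 0. Mki67, the proliferation antigen, stood at 96.5 and 98.6 CPM against 91.8 and 69.4 CPM, without overlap (0.29, adjusted p = 0.994). The 24 tested genes of glycolysis and lactate had a median of -0.322, 16 of them below 0, and libraries did not overlap for 9 higher with cAMP and 3 higher with forskolin. In that list Ldhb, a lactate dehydrogenase subunit, stood at 37.6 and 65.3 CPM against 177 and 95.6 CPM (-1.37, adjusted p = 0.314), and its relative Ldha overlapped at 151 and 123 CPM against 230 and 126 CPM. No member of these 5 lists, glycolysis included, was called.

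Stress and immune genes also gave no call. The alarm list, antimicrobial and wound genes of keratinocytes, had a median of 0.467 over 17 tested members. Of these, 16 were above 0 and 1, Lcn2, below: S100a9, a calcium-binding alarmin, stood at 20.4 and 20 CPM with forskolin and 14.7 and 3.13 CPM with cAMP (1.40, adjusted p = 0.312), and Lcn2, the siderophore-binding lipocalin, at 37.4 and 58.9 CPM against 117 and 60.9 CPM (-0.83, adjusted p = 0.809). Klf4, a barrier transcription factor that also responds to tissue dissociation, stood at 226 and 126 CPM against 87.7 and 47.3 CPM (1.38, adjusted p = 0.32), while the heat shock and dissociation list as a whole had a median of -0.012. The 28 T cell and NK cell markers had a median of 0.428, with 7 members whose libraries did not overlap, all with forskolin higher, where 16.6% of all tested genes did so, and no member called. Their summed level was 1620 and 994 CPM with forskolin and 1112 and 735 CPM with cAMP, so the sums overlapped. Zap70, a kinase of T cell receptor signalling, stood at 24.3 and 30.8 CPM against 18.5 and 6.93 CPM (1.19, adjusted p = 0.475). The Langerhans cell and MHC class II list had a median of 0.4. Without cAMP 2 it was -0.207, near that of all tested genes in the same fit, -0.219.

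The dermal collagens Col1a2 and Col3a1 were called higher with cAMP, but their libraries overlapped. Col1a2, a chain of fibrillar collagen, stood at 0.968 and 53.3 CPM with forskolin and at 38.3 and 97.6 CPM with cAMP (-2.59 ± 0.53, adjusted p = 0.00208). Col3a1 stood at 1.26 and 42.7 CPM against 26 and 63.5 CPM (-2.07 ± 0.52, adjusted p = 0.0392). The low library was forskolin 1 in both, and forskolin 2 was above cAMP 1. Without forskolin 1, the differences were -0.20 for Col1a2 and 0.07 for Col3a1 (adjusted p = 1 for both), and with limma's robust setting neither was called (0.992). Of 16 tested fibroblast markers, these 2 were called, the median was -0.938, and it was -0.176 without forskolin 1. The melanocyte list was low in the same library: its summed level was 105 CPM in forskolin 1 and 261 to 271 CPM in the others. The part of these cell types in the collagen result was not tested.

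Gm10801 and Gm10800, with the largest differences, belong to 7 called predicted genes that share sequence with one another. Gm10801 (chromosome 2, 98662237 to 98664083) stood at 190 and 37.8 CPM with forskolin and at 1.37 and 4.34 CPM with cAMP (4.6 ± 0.49, adjusted p = 1.63e-13). Its neighbour Gm10800 (98666547 to 98667301) stood at 586 and 109 CPM against 6.83 and 16.1 CPM (4.45 ± 0.49, adjusted p = 5.56e-13). Gm26870, on chromosome 9 from 3000282 to 3038313, overlaps Gm10717, Gm10719 and Gm11168 on the other strand, and stood at 49.3 and 14.7 CPM against 1.09 and 0.541 CPM (3.97 ± 0.50, adjusted p = 5.04e-10). Gm21738, on chromosome 14, Gm10717, Gm10719 and Gm11168 differed by 3.72, 3.60, 3.61 and 2.37. In all 7 genes forskolin 1 was highest, forskolin 2 came next, and both cAMP libraries were lowest.

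A stretch of 30 bases was found in the transcripts of all 7 genes, searched on both strands, and is shown because it is the reason that their values cannot be taken as separate: cagtgtgcatttctcatttttcacgttttt. Gm10717 and Gm10719 shared 78.0% of the 25-base words of Gm10717, and Gm10800 and Gm10801 shared 38.4% of those of Gm10800. The sources used here do not give how reads that match several of these genes were assigned. The 7 calls are thus not independent of one another.

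**Figure D5:**
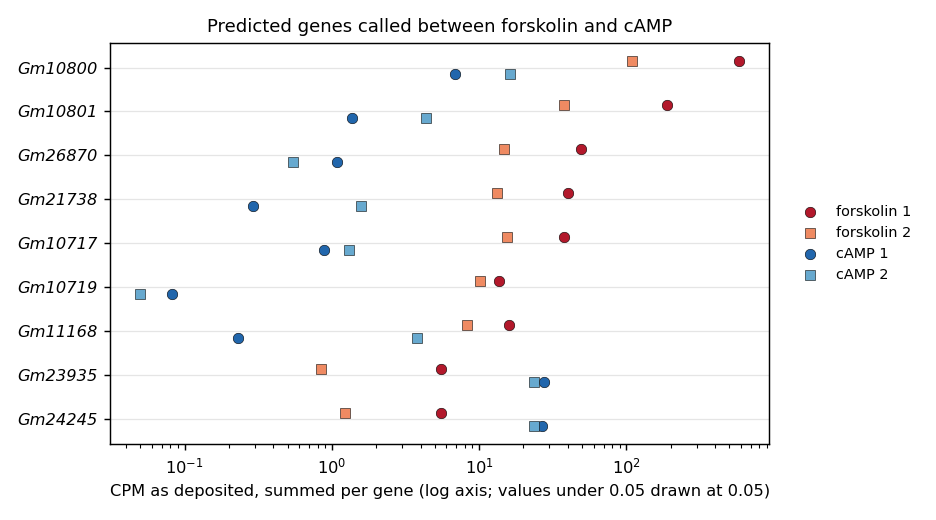
Each row is a predicted gene and each point a library, with CPM on a log axis (values under 0.05 drawn at 0.05). The 7 genes with shared repeat sequence (Gm10800 to Gm11168) have both forskolin points to the right of both cAMP points, and Gm23935 and Gm24245 have them to the left.

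Several noncoding or predicted genes were higher with cAMP. The neighbours Gm13178 and Gm436 on chromosome 4 were both called, Gm13178 at 11.6 and 17.0 CPM against 75.8 and 61.4 CPM (-2.20 ± 0.47, adjusted p = 0.00415). Tmem254a and Tmem254b had equal values in every library (8.24 and 7.88 CPM against 36.7 and 25.6 CPM), and all 25-base words of Tmem254b were in Tmem254a, so they count as 1 call.

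Gm23935 (chromosome 16, 11144125 to 11144181) and Gm24245 (chromosome 4, 139338304 to 139338360) are short genes of 57 bases with the same sequence, shown because it makes them a single measurement: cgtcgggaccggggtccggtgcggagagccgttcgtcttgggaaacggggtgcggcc. Gm23935 stood at 5.52 and 0.844 CPM with forskolin and at 27.6 and 23.5 CPM with cAMP (-2.93 ± 0.49, adjusted p = 1.53e-05), and Gm24245 differed by -2.77. Rmrp, the RNA of a nuclear ribonuclease, stood at 6.18 and 2.14 CPM against 26.3 and 11.4 CPM (-1.95 ± 0.49, adjusted p = 0.0392). All 3 had cAMP above forskolin in every library.

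Of the remaining calls, 2 rested on forskolin 2 alone. Gm37194 stood at 3128 CPM in forskolin 2 and at 1.09 to 6.12 CPM in the others, and Gm12895 at 49.5 CPM in forskolin 2 and at no more than 1.39 CPM in the others. Without forskolin 2 their differences were -1.22 and -0.02. Forskolin 2 is also the library with the high ribosomal RNA, and a link was not tested. Malat1, a nuclear long noncoding RNA, was likewise highest there, at 233 and 856 CPM with forskolin against 120 and 117 CPM with cAMP, and did not pass (1.91, adjusted p = 0.0538).

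A further 8 calls were of low level. Gm11175, which overlaps the AP-1 gene Jund on the other strand, and AC132239.1, which overlaps Calm5, were called higher with forskolin, and the Gm11175 libraries overlapped at 5.41 and 26.2 CPM against 6.86 and 0.391 CPM. Gsg1l, Cfap46, Gm15536, Gm16098, Gm27177 and Gm29253 were called higher with cAMP. Among these, Cfap46, a gene of motile cilia, stood at 1.08 and 0.611 CPM with forskolin and 8.51 and 6.94 CPM with cAMP (-2.25 ± 0.52, adjusted p = 0.0149). Of its summed CPM, 96.4% was in a transcript marked as nonsense-mediated decay and not in the coding transcript. Gm4459, which overlaps it on the same strand, stood at 6.74 and 10.5 CPM against 25.3 and 11.3 CPM. Gm15536 reached the highest level of the 6, 27.8 CPM in cAMP 1, against 6.5 CPM in cAMP 2 and 2.65 and 1.4 CPM with forskolin.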

How the data were processed

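RNA-seq of total dorsal epidermis was used from 4 libraries, forskolin 1 and 2 and cAMP 1 and 2. Per the labels' protocols, dissection and trypsin freed the epidermis, Trizol and a column kit gave the RNA, and the libraries were stranded mRNA libraries. The submitters' processing notes name Partek, STAR and bcl2fastq 2.17. For settings, build and use of strand in counting, the sources used here give nothing.

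The authors deposited normalized values for 59869 transcripts, read here as CPM from the column sums of 805256 to 947144. A small offset of 1.93527e-06 to 2.92585e-06 stood in place of 0. Summing transcripts by Ensembl gene gave 21667 genes, and 3 rows with no gene identifier (at most 0.0679% of a library) were left out. Columns were placed by the library numbers in the sample descriptions. The files held no counts, so no count model was run. GENCODE M21 (GRCm38) held 98.3% of the transcripts, and start and end matched for 90.8% of these.

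The test took the 13629 genes that reached 1 CPM in 2 or more of the 4 libraries. It was limma's moderated test (limma 3.58.1, R 4.3.3) with an intensity trend, on log2(CPM + 1), 2 libraries a side, without covariates, 2-sided, with Benjamini-Hochberg adjustment and a threshold of 0.05. The residual degrees of freedom were 2 and the prior degrees of freedom 190.8, so the test borrows nearly all of its spread from other genes. The script was tested on simulated data. The added 1 makes the log2 differences of low genes too small. Errors are standard errors from limma and use the same borrowed spread.

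Named genes were those called, with libraries that did not overlap, a mean of at least 10.59 CPM and no predicted or clone name: up to 12 in each direction, filled by smallest p. Up to 4 members with the smallest p were named per list, with a fixed set of 18 skin and cAMP genes. Some genes are not reported here. Other named genes were chosen after their values were seen. The comparison, the 33 gene lists and the alternatives were chosen with earlier results of these data known. Alternatives were 14 planned settings (pseudocount, filter, scaling, shared spread, replicate block, each library left out) and values summed per symbol, chosen after seeing the data. Promoter sequences and motif searches used RefSeq on GRCm38.p6.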

Additional observations from a re-analysis of the deposited data

How the results depend on the processing

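The calls depended strongly on the setting. Against 22 genes higher with forskolin and 24 higher with cAMP, a pseudocount of 0.1 gave 10 and 6, a minimum of 10 CPM gave 12 and 14, and no filter gave 0 and 0 of 21574 genes, of which 1039 had an unadjusted p under 0.05 in limma. Leaving out each library gave 9 to 83 genes higher with forskolin and 4 to 10 higher with cAMP, the 83 being without cAMP 1, when the median of all genes moved to 0.267. Without cAMP 2 that median was -0.219. Median-of-ratios scaling gave 18 and 47, so that 27.7% of calls were higher with forskolin against 47.8% as reported; quantile normalization gave 18 and 39 (31.6%) and scaling to nuclear genes 17 and 30 (36.2%). Values summed per symbol gave 19 and 20. Of the 46 calls, 33 were also made under median-of-ratios scaling and 13 without forskolin 1.

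With the replicate number as a block there were 28 and 27 calls, 46 of them shared with the reported calls. The labels do not say that a number pairs libraries, and same-numbered libraries deviated from their group means with a correlation of -0.0514.

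Among list medians, that of the cornified layer ranged from 0.037 to 0.975 with a library left out. Gene differences reversed in 3 cases: Gm37194 (-1.219) and Gm12895 (-0.017) without forskolin 2, and Col3a1 (0.067) without forskolin 1. With a library left out these genes ranged up to 9.326 and 4.975 (without forskolin 1) and down to -4.209 (without forskolin 2). The cause was not tested. Low genes are limited by depth, and with 2 libraries a side an exact permutation test of a single gene cannot go below 1 in 3.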

Other observations

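The untreated library, which is in no comparison above and entered only the alternative fit on all 5 libraries, held 69.3% mitochondrial and 7.9% nuclear transcripts, far from the 26% to 38% nuclear share of the treated libraries, and is a single library. It listed the repeat-like predicted genes above every treated library: Gm10800 at 1558 CPM, Gm10801 at 355 CPM and Gm26870 at 95.6 CPM. Gm23935 stood there at 22.3 CPM, near the cAMP libraries. Lipid genes stood below every treated library, with Elovl3 at 6.74 CPM, Lpl at 2.2 CPM and Hsd3b6 at 0.85 CPM. Nr4a3 and Nr4a2 stood at 0.0203 CPM each, below every treated library, and Serpinb2 at 25.8 CPM, between the forskolin and cAMP means. Rptn stood at 2.31 CPM, within the range of the cAMP libraries.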
